A study of Mus musculus with 6 samples.

Results

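The semaphorin, plexin, ephrin, Eph receptor, Slit, Robo and netrin genes were followed across 6 mouse primary cancer cell lines. Members were chosen by gene symbol: semaphorins of classes 3 to 7, plexins A to D, EphA and EphB receptors, ephrin-A and ephrin-B ligands, Slit1 to Slit3, Robo1 to Robo4 and the numbered netrins. The rule found 61 genes among the 55401 in the files. In 3 of the lines the tumour had grown in a C57BL/6 host labelled Rag1KO (replicates 1, 3 and 7), and in the other 3 in a C57BL/6 host labelled WT (replicates 2, 4 and 6). Rag1 encodes part of the recombinase that builds antigen receptors, so mice without it have no mature T or B cells. The tumours were minced, enzymatically digested and cultured in serum-containing DMEM before RNA was taken. The labels give neither tumour type nor host sex and age, nor do they state whether separate animals gave the lines. The p-values therefore reflect variation among these 6 cultures, and not necessarily among animals.

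These families are the classical guidance cues of the nervous system, and most are also used by blood vessels, fibroblasts, leukocytes and tumours. Semaphorins are secreted or membrane-bound ligands that signal through plexins, with neuropilins as co-receptors for most class 3 members. Ephrins are held on the cell surface, ephrin-A by a lipid anchor and ephrin-B by a transmembrane segment, and they engage Eph receptor tyrosine kinases on neighbouring cells. Secreted Slits act through Robo receptors, usually as repellents, and netrins act through DCC, neogenin and UNC5 receptors.

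Levels are normalized counts, meaning reads divided by 1 size factor per library, and every library held between 55409583 and 62998051 reads. Rag1 itself had 39.3, 126 and 177 normalized counts in the libraries labelled Rag1KO replicates 1, 3 and 7, and 0 reads in all 3 libraries labelled WT. Groups are therefore named by their labels throughout, and an exchange of labels would turn round every direction given here. All Rag1KO lines and WT replicate 6 (apart from Eif2s3y, at 0 reads there) expressed Y-linked genes while WT replicates 2 and 4 expressed Xist, so host label and sex-linked expression largely coincide, WT replicate 6 being the exception. WT replicate 6 stood apart from the rest, being at least 8-fold below each of the other 5 libraries for 811 of the 16137 genes tested. By fibroblast and mesenchyme markers the lines were mesenchymal, with WT replicate 6 apart. The 6 genes of that list summed to between 1106519 and 2037274 normalized counts in Rag1KO lines and between 302828 and 1789371 in WT lines. In WT replicate 6 Col1a1 was at 206 normalized counts and Thy1 at 0.88, against at least 478322 and 29802 in each other line. Col1a2 and Pdgfrb were also lowest there, at 151806 and 8208 normalized counts. Col3a1 at 126015 and Pdgfra at 16592 normalized counts lay within the range of the other lines. The 7 leukocyte markers summed to between 240.3 and 539 normalized counts in Rag1KO lines and between 132 and 382 in WT lines, most of it Cd68 and Csf1r, with Itgam and Cd3e at 0 reads in every library. For endothelium the sums were 132 to 1304 normalized counts in Rag1KO lines and 41.4 to 894 in WT lines, with Tie1 at 0. The 2 highest endothelial sums were mostly Tek, at 1243 normalized counts in Rag1KO replicate 7 and 805 in WT replicate 4. Pecam1 was at no more than 13.9 normalized counts in any line. For epithelium the sums were 13.6 to 49.8 and 9.68 to 347 normalized counts, in the same order, with Epcam at 0. The highest epithelial sum was that of WT replicate 4, with Cdh1 at 158, Krt18 at 126 and Krt8 at 58.9 normalized counts. In the other lines these genes reached at most 15.3, 4.03 and 41.3. Schwann and neural markers summed to 1014 to 4515 normalized counts in Rag1KO lines and 549 to 2365 in WT lines, most of it Tubb3, and Rbfox3 was at 0. Melanocyte markers summed to 463 to 1770.5 normalized counts in Rag1KO lines and 638 to 2253 in WT lines, most of it Mitf, and Dct was at 0. In bulk RNA, fewer cells of a type and less RNA per cell cannot be told apart.

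Most members were expressed. More than 10 reads were found in all 6 libraries for 35 of the 61 genes, in some libraries for 20 and in no library for 6. Those 6 were Epha5, Epha6, Epha8, Epha10, Ephb1 and Robo4. Epha6 and Ephb1 had 0 reads in every library, which allows up to 2.64 to 3.48 normalized counts depending on the library (3 reads, counting error only). Robo4, the Robo receptor of endothelial cells, had 1 read in all 6 libraries together. A filter on low counts kept 50 members for testing. The 11 others were Epha5, Epha6, Epha8, Epha10, Ephb1, Ntn5, Plxnb3, Robo3, Robo4, Sema4d and Sema5b.

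**Figure D1:**
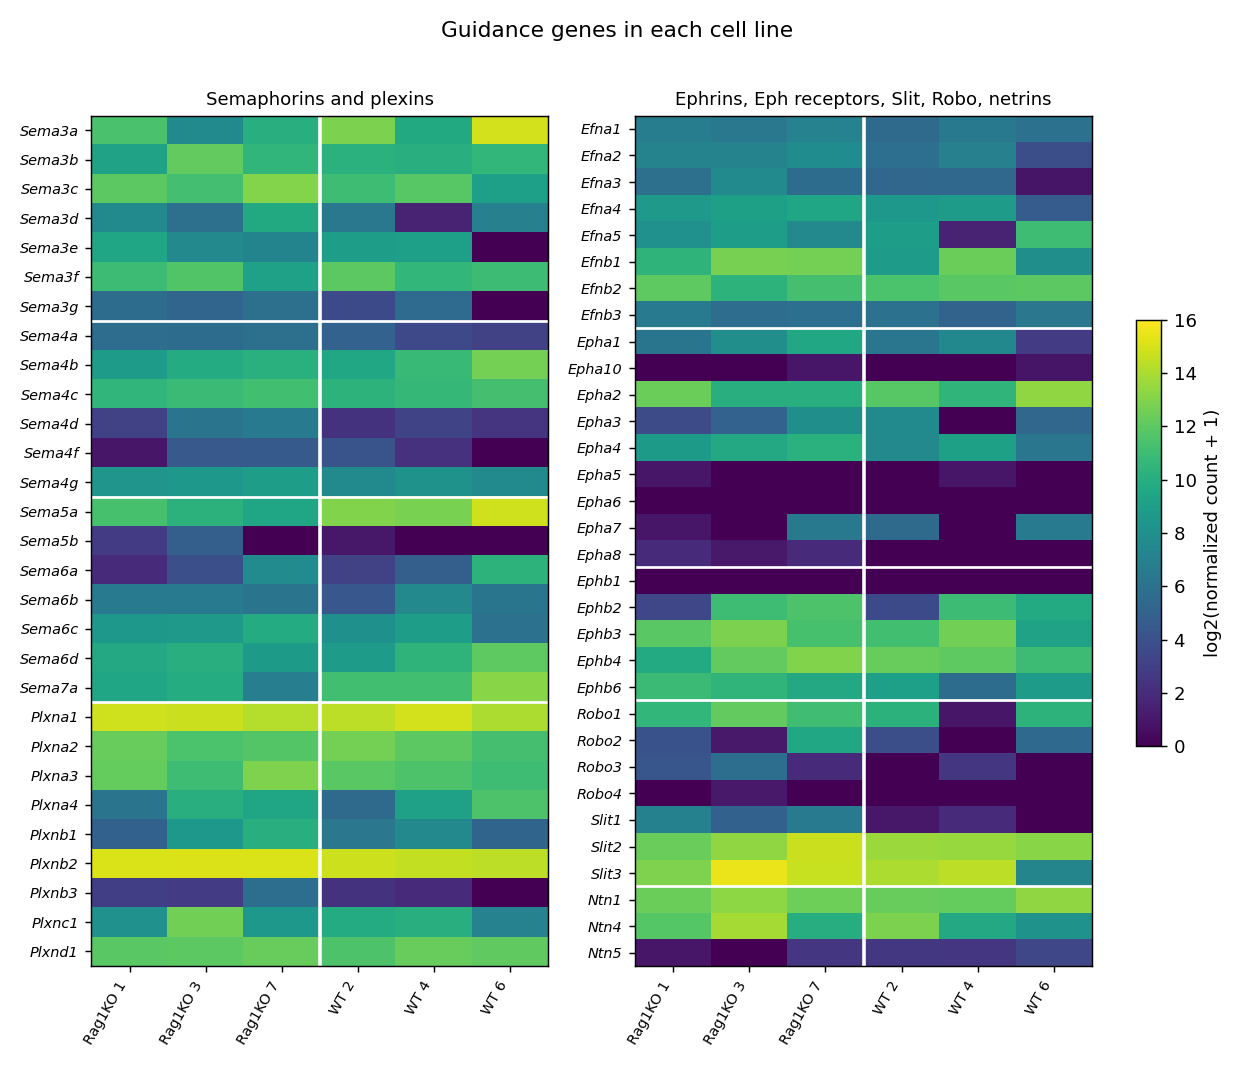
Level of each of the 61 members in each line, as log2(normalized count + 1), with lines labelled Rag1KO left of the white vertical bar and lines labelled WT right of it; white horizontal bars separate families. Plxna1 and Plxnb2 were high in every line, while Robo1, Efna5, Slit3, Sema3e and Ephb2 were high in some lines and near 0 or much lower in others.

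By the median span of tested members between the highest and lowest line, plexins varied least and the Slit and Robo genes most. Each family had only 2 to 8 tested members. Plexins were split: Plxna4, Plxnb1 and Plxnc1, 3 of the 8 tested (37.5%), spanned above 8-fold, where 20.7% of all genes tested did. Low lines with 0 to 2 reads set some of the widest spans in other families. The median span was 3.09-fold for plexins, 6.74-fold for class 4 semaphorins, 10.7-fold for netrins, 20.4-fold for ephrins and 21.7-fold for EphB receptors. It was 25.0-fold for semaphorins of classes 5 to 7, 59.1-fold for class 3, 100.4-fold for EphA receptors and 308-fold for Slit and Robo genes. Per kilobase of exon the highest level was that of Plxnb2, a receptor for class 4 semaphorins, which averaged 3844 normalized counts per kb over the 6 lines. Slit3 followed with 3289 normalized counts per kb and Plxna1, which pairs with neuropilins as a receptor for class 3 semaphorins, with 2666. Ntn4 and Ntn1 had 1233 and 1099 normalized counts per kb and Efnb1 1000.3. Plxna1 varied little, with 29877, 26471 and 19062.5 normalized counts in Rag1KO lines 1, 3 and 7 and 21317, 31004 and 17081 in WT lines 2, 4 and 6. Plxnd1, the receptor of Sema3e, was similarly even at 3893, 4045 and 5007 normalized counts in Rag1KO lines and 2945, 5081 and 4285 in WT lines. Only 4 of the 50 tested members stayed within 2-fold between the highest and the lowest line: Plxna1, Plxnb2, Plxnd1 and Sema4c.

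Elsewhere the lines diverged widely. The median tested member spanned 19.2-fold between its highest and lowest line (on the log2(value + 1) scale), against 2.46-fold for the median of all genes tested. Spans above 8-fold were found for 35 of the 50 members, where 20.7% of all genes tested had such a span. With genes averaging at least 100 normalized counts the figures were 28 of 40 members and 15.98% of 12676 genes. Without WT replicate 6, spans above 8-fold were found for 22 of 50 members and 12.9% of all genes tested, and the medians were 6.2-fold and 2.01-fold. Within the Rag1KO lines alone the medians were 3.73-fold for members and 1.67-fold for all genes, and within the WT lines 8.12-fold and 1.86-fold. These are descriptions of the members that passed the filter, without a test.

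No member passed the threshold for a difference between lines labelled Rag1KO and WT. limma called 0 of the 50 tested members at an adjusted p under 0.05, where it called 0.0062% of all genes tested (1 gene), and edgeR also called 0 members, where it called 0% of all genes. Without WT replicate 6 limma again called 0 members, where it called 0.0298% of all genes tested. At an unadjusted p under 0.05 limma gave 7 members, 5 higher in Rag1KO lines and 2 higher in WT lines, where 4.67% of all genes tested had such a p. DESeq2 called 2 members, Slit1 and Sema5a, where it called 0.403% of all genes tested. Of these, Slit1 passed the filter on low counts only through the Rag1KO lines, where it is high. The median log2 fold change (Rag1KO minus WT) was 0.75 over the 50 members, with 37 positive and 13 negative, against −0.00 over all genes tested. That median moved to 1.06 without Rag1KO replicate 1 and to 0.51 without WT replicate 6. Groups did not overlap for 10 tested members, 8 higher in Rag1KO lines and 2 higher in WT lines. Over all genes tested 12.1% did not overlap, 5.6% being higher in Rag1KO lines and 6.49% higher in WT lines. Slit1 is counted among those 8 members and among the 5 with an unadjusted p under 0.05 in limma. Its place in both counts was built in by the filter.

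**Figure D2:**
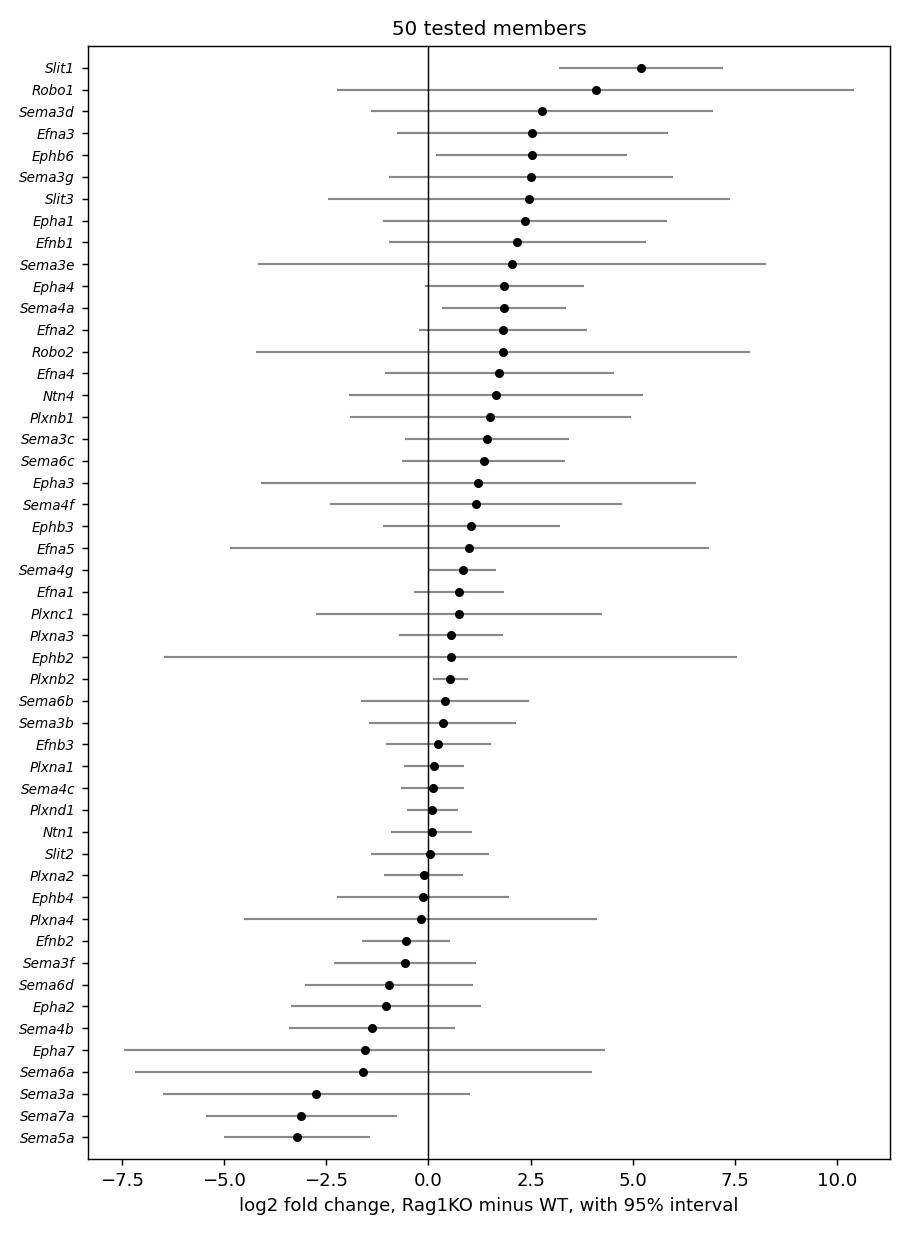
Log2 fold change (Rag1KO minus WT) of each of the 50 tested members by limma on log2(normalized count + 1), with its 95% interval; points right of 0 are higher in lines labelled Rag1KO. The intervals of Slit1, Sema4a, Ephb6, Sema4g, Plxnb2, Sema7a and Sema5a leave out 0 before adjustment, and 0 members passed after it. Slit1 entered the test only through the Rag1KO lines, where it is high.

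Among membrane-bound semaphorins, Sema5a and Sema7a were the pair that lay higher in every WT line. Sema5a, a transmembrane semaphorin with thrombospondin repeats, had 2592 normalized counts in Rag1KO line 1, 1224 in Rag1KO line 3 and 667 in Rag1KO line 7, against 8069.6, 6929.8 and 30023 in WT lines 2, 4 and 6. The lowest WT line was well above the highest Rag1KO line. Its log2 fold change was −3.21 (SE 0.73, 95% interval −5.00 to −1.42, 9.25-fold higher in WT) and −2.54 without WT replicate 6. The adjusted p for Sema5a was 0.85 in limma and 0.00976 in DESeq2, and ranged up to 0.982 over the alternatives. Sema7a, a lipid-anchored semaphorin that binds Plxnc1 and integrins, had 669.9, 950.1 and 116 normalized counts in Rag1KO lines 1, 3 and 7 and 2269.9, 2318 and 9179.6 in WT lines 2, 4 and 6. It too showed no overlap, and WT line 6 was the highest of all. Its log2 fold change was −3.11 (SE 0.95, 95% interval −5.45 to −0.78) with an adjusted p of 0.85 in limma, with −2.45 without WT replicate 6 and −2.19 without Rag1KO replicate 7. WT line 6, the WT line with Y-linked expression, was thus the highest for both genes. The part of sex-linked expression in their levels was not tested.

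The receptor of Sema7a followed another order. Plxnc1 had 269, 6288 and 371 normalized counts in Rag1KO lines 1, 3 and 7 and 920.5, 1053 and 137 in WT lines 2, 4 and 6. Rag1KO line 3 was the high one and WT line 6, the highest for Sema7a, was the lowest for Plxnc1. The class 6 semaphorins, ligands of type A plexins, did not share a direction: the log2 fold change was −1.59 for Sema6a (0.51 without WT replicate 6) and −0.96 for Sema6d, and 0.40 for Sema6b and 1.35 for Sema6c. Sema6a (on chromosome 18) had 2.87, 13.9 and 213 normalized counts in Rag1KO lines and 8.06, 28.0 and 1285 in WT lines, so that WT line 6 and Rag1KO line 7 stood above the rest. Sema6d peaked in WT line 6 at 4149.8 normalized counts, with 413 to 1051 in Rag1KO lines and 457 and 1367 in the remaining WT lines. Sema6c was lowest in WT line 6, at 64.2 normalized counts, against 259 to 907 elsewhere.

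The secreted class 3 semaphorins changed places between lines. Sema3a, which repels axons and acts through Nrp1 and type A plexins, had 2765, 204 and 1093 normalized counts in Rag1KO lines 1, 3 and 7, against 7241, 832 and 30710.1 in WT lines 2, 4 and 6. Groups overlapped, since WT line 4 lay below Rag1KO lines 1 and 7, and the log2 fold change of −2.74 (SE 1.54, adjusted p 0.85 in limma) shrank to −1.53 without WT replicate 6. Sema3c, known for its role in the cardiac outflow tract, ran the other way in WT line 6. It had 4043, 2409 and 8254 normalized counts in Rag1KO lines and 2074, 3739 and 524 in WT lines, with a log2 fold change of 1.44 (SE 0.82) that was 0.63 without WT replicate 6. Sema3e, which binds Plxnd1 directly, had 669, 185 and 147 normalized counts in Rag1KO lines, 496.5 and 527 in WT lines 2 and 4, and 0 reads in WT line 6. Sema3d had 198, 59.1 and 854.5 normalized counts in Rag1KO lines and 83.6, 1.93 and 125 in WT lines, the low value being 2 reads in WT line 4. Sema3d, Sema3a and Sema3e are neighbours on chromosome 5, with gaps of 536 kb and 423 kb, yet each had its own low line. As a result a different class 3 gene led per kilobase in different lines: Sema3c with 40.9% of the class in Rag1KO line 1, Sema3b with 49.0% in Rag1KO line 3 and Sema3c with 65.0% in Rag1KO line 7. In WT lines 2, 4 and 6 the leaders were Sema3f with 40.7%, Sema3c with 44.9% and Sema3a with 73.4%. Before division by exon length Sema3a lay above Sema3f in WT line 2, at 7241 against 4027 normalized counts.

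In class 4, Sema4c and Sema4b supplied 50.9% and 42.9% of the level per kilobase averaged over the lines. Sema4c, a ligand of Plxnb2, was steady at 1462, 1919 and 2276 normalized counts in Rag1KO lines and 1284, 1599 and 2490.2 in WT lines. Sema4b had 453, 922 and 1146 normalized counts in Rag1KO lines and 737, 1789 and 6379 in WT lines, where WT line 6 stood out. The smaller Sema4g, also reported as a Plxnb2 ligand, was higher in every Rag1KO line. Its values were 322, 368 and 505 normalized counts in Rag1KO lines and 190.3, 281 and 193 in WT lines, a log2 fold change of 0.84 (SE 0.33, adjusted p 0.85 in limma). Sema4a, best known from immune cells, was low everywhere but also without overlap, at 51.7, 48.7 and 59.1 normalized counts in Rag1KO lines and 31.2, 10.6 and 7.92 in WT lines (log2 fold change 1.85, SE 0.62, adjusted p 0.85 in limma). Sema4d, abundant on T cells and the ligand of Plxnb1, missed the filter on low counts, with 7.67, 70.7 and 90.1 normalized counts in Rag1KO lines and 4.03, 8.69 and 4.4 in WT lines. Plxnb1 itself had 29.7, 364 and 1099 normalized counts in Rag1KO lines and 78.6, 183 and 35.2 in WT lines, so Rag1KO lines 3 and 7 were the 2 highest for both genes. The leukocyte markers Ptprc, Adgre1, Itgam and Cd3e were at no more than 3.83 normalized counts in these libraries. Csf1r, another leukocyte marker, had 141, 429 and 164 normalized counts in Rag1KO lines and 72.5, 268 and 4.4 in WT lines, and Cd68 had 75.6 to 142 and 85.6 to 126. Their part in the levels of Sema4a and Sema4d was not tested.

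Plxnb2 was the abundant plexin whose groups did not overlap. It had 34533, 35958 and 34649 normalized counts in Rag1KO lines 1, 3 and 7, against 27836, 23397 and 21673 in WT lines 2, 4 and 6. The Rag1KO lines were tightly grouped, at 35047 ± 791 normalized counts, against 24302 ± 3180 in WT lines (SD, n = 3 each). The log2 fold change was 0.54 (SE 0.18, 95% interval 0.10 to 0.97, 1.45-fold), with an adjusted p of 0.85 in limma, and over the alternatives that left out 1 library it lay between 0.46 and 0.64. Plxnb2 made up 99.1% of the type B plexin level per kilobase averaged over the lines, and Plxna1 77.1% of type A. Plxna4, the type A plexin with the widest span, had 69.0, 1088 and 670.4 normalized counts in Rag1KO lines and 44.3, 565 and 2952 in WT lines. Plxna2 and Plxna3 lay between 2082 and 7736 normalized counts in all 6 lines, and their groups overlapped.

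**Figure D3:**
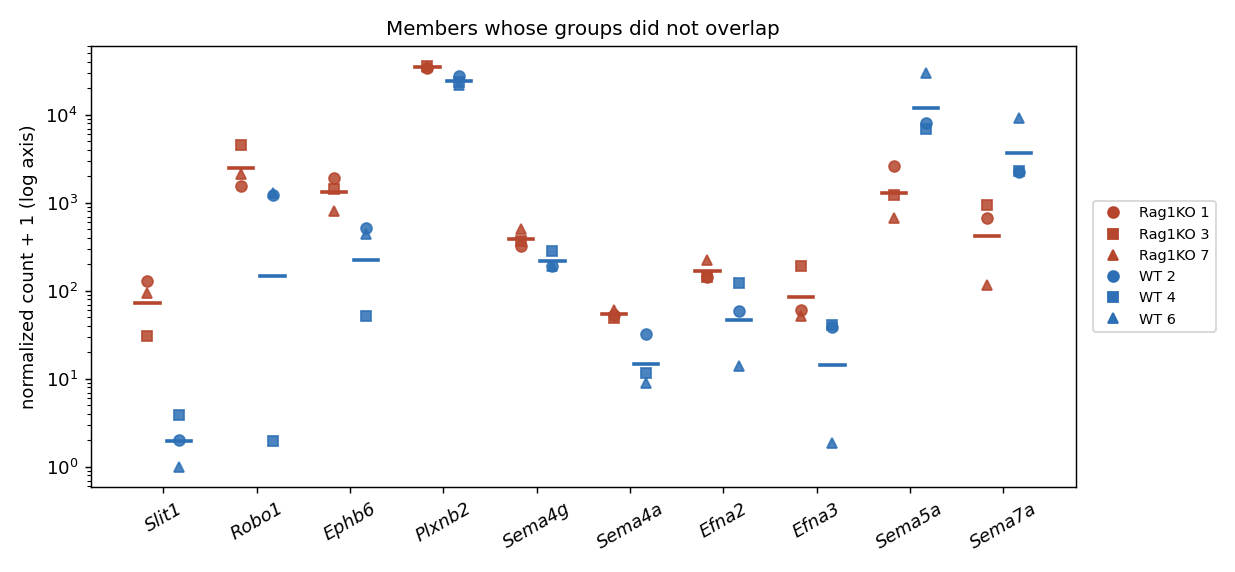
Normalized count + 1 on a log axis for the 10 tested members whose groups did not overlap; points are lines (red Rag1KO left, blue WT right), bars are group means on the log2 scale. Sema5a and Sema7a were higher in the WT lines, and the other 8 in the Rag1KO lines. A single WT line lay far below the others for Robo1, Ephb6 and Efna3. Slit1 entered the test only through the Rag1KO lines, where it is high.

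The ephrin-B ligands were led by different genes in different lines. Efnb1 (X-linked) had 1385, 6716 and 6397 normalized counts in Rag1KO lines 1, 3 and 7 and 453, 5513 and 254 in WT lines 2, 4 and 6. Rag1KO lines 3 and 7 and WT line 4 formed the high set, with a log2 fold change between groups of 2.18 (SE 1.28, adjusted p 0.85 in limma) that was 1.30 without WT replicate 6 and 3.52 without WT replicate 4. Efnb2, the arterial ephrin and main ligand of Ephb4, was more even at 4181, 1324 and 2508 normalized counts in Rag1KO lines and 2819.8, 3819.8 and 4047 in WT lines. Efnb1 supplied 90.3%, 82.8% and 73.8% of the ephrin-B level per kilobase in Rag1KO lines 3 and 7 and WT line 4, and Efnb2 58.6%, 73.0% and 85.7% in Rag1KO line 1 and WT lines 2 and 6.

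All 5 ephrin-A genes had positive fold changes in limma without passing the threshold, that of Efna5 being negative in edgeR and DESeq2. Efna2 had 143, 141 and 224 normalized counts in Rag1KO lines and 57.4, 124 and 13.2 in WT lines, with no overlap (log2 fold change 1.83, SE 0.84, adjusted p 0.85 in limma), and the fold change was 0.96 without WT replicate 6 and 2.53 without WT replicate 4. Efna1, Efna3 and Efna4 lie side by side on chromosome 3, with gaps of 32.8 kb and 10.4 kb. WT line 6 held 1 read of Efna3 (0.88 normalized counts) and 23.8 normalized counts of Efna4, against 38.3 to 191 and 369 to 680.1 in the other 5 lines. Efna1 was not low there: it had 63.4 normalized counts in WT line 6 and 44.3 to 138 elsewhere. About 14.1% of the Efna3 exon bases and 10.5% of those of Efna4 overlap an antisense gene, and strand use in counting is not given in the sources used here. Efna5 went its own way, with 274, 484 and 182 normalized counts in Rag1KO lines and 499.5, 1.93 and 2079 in WT lines. The WT lines thus held both the lowest value, from 2 reads, and the highest.

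Among the receptors, Epha2, often abundant in tumour cells, led the EphA genes per kilobase in every line, with 38.6% to 98.9% of their sum. It had 5386, 1031 and 1099.6 normalized counts in Rag1KO lines 1, 3 and 7 and 3625, 1390.4 and 10593 in WT lines 2, 4 and 6, with WT line 6 highest and Rag1KO line 3 lowest, as for Sema3a. Epha4, which binds ephrins of both classes, had 414, 804 and 1175 normalized counts in Rag1KO lines and 185, 556 and 78.3 in WT lines, overlapping through WT line 4 (log2 fold change 1.86, SE 0.79, adjusted p 0.85 in limma; 1.18 without WT replicate 6). Epha3 had 11.5, 31.3 and 254 normalized counts in Rag1KO lines and 202, 0 and 38.7 in WT lines. Epha1 spanned 121-fold, from 6.16 normalized counts in WT line 6 to 743 in Rag1KO line 7.

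Ephb6, a receptor whose kinase domain lacks catalytic activity, was the EphB gene without overlap. Its values were 1936, 1441 and 811 normalized counts in Rag1KO lines 1, 3 and 7, against 517, 50.2 and 439.97 in WT lines 2, 4 and 6. Every Rag1KO line lay above every WT line, and the log2 fold change was 2.53 (SE 0.95, 95% interval 0.20 to 4.87) with an adjusted p of 0.85 in limma; without WT replicate 4 it was 1.46. Ephb2 fell into a high and a low set that cut across the labels, with 9.58, 2117 and 2915 normalized counts in Rag1KO lines and 11.1, 2018 and 867 in WT lines. Rag1KO line 1 and WT line 2, the low pair for Ephb2, were also the 2 lowest lines for Plxna4. Ephb4 had 870.1, 4539.7 and 7891 normalized counts in Rag1KO lines and 4886, 4253 and 1979.9 in WT lines. Ephb3 had 3877, 7348 and 2621 normalized counts in Rag1KO lines and 2311, 6127 and 588 in WT lines. Neither showed a separation of the groups, with log2 fold changes of −0.13 (SE 0.86) for Ephb4 and 1.05 (SE 0.89) for Ephb3. For Ephb3 it was 0.16 without WT replicate 6 and 1.85 without WT replicate 4.

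The Slit and Robo genes held the widest spans. Slit1, the least expressed Slit, had 134, 26 and 97 reads in Rag1KO lines 1, 3 and 7 (128, 30.1 and 94.0 normalized counts) against 1, 3 and 0 reads in WT lines 2, 4 and 6. Every WT line was thus at or under the 3 reads that a count of 0 allows, and every Rag1KO line was above. On the log2(value + 1) scale its fold change was 5.19 (SE 0.82, 95% interval 3.19 to 7.20), a value that depends on the pseudocount. Slit1 had more than 10 reads only in the Rag1KO lines and entered the test through them, so a difference was built into its selection. The adjusted p of Slit1 was 0.85 in limma, 0.891 in edgeR and 0.000328 in DESeq2, with 0.000328 to 0.982 over all alternatives. Slit2 was abundant in every line, at 5241, 10231 and 27277 normalized counts in Rag1KO lines and 12456, 11932 and 9092.5 in WT lines. Slit3 had 7794, 47513 and 25386 normalized counts in Rag1KO lines and 17049, 21847 and 153 in WT lines. WT line 6 was the exception, 310.3-fold below the highest line. The log2 fold change of Slit3 was 2.45 (SE 2.01, adjusted p 0.85 in limma), and 0.13 without that library.

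Robo1, the main Robo receptor of these lines, was nearly absent from 1 line. It had 1575.5, 4602 and 2148 normalized counts in Rag1KO lines 1, 3 and 7 and 1227, 0.97 and 1301 in WT lines 2, 4 and 6, the low value being a single read. Groups did not overlap, but WT lines 2 and 6 lay just under Rag1KO line 1, and the log2 fold change of 4.09 (SE 2.58, adjusted p 0.85 in limma) was 0.98 without WT replicate 4. Robo2, the neighbour of Robo1 on chromosome 16 across a gap of 846 kb, had 15.3, 1.16 and 783 normalized counts in Rag1KO lines and 13.1, 0 and 43.1 in WT lines. Rag1KO line 7 alone expressed it at a high level, and WT line 4 had 0 reads. The Schwann and neural crest marker Sox10 was also at 323 normalized counts in Rag1KO line 7 and at no more than 0.97 in the other 5 lines, and its part in the Robo2 level was not tested. Robo3, the Robo of commissural axons, had 18.2, 53.3 and 2.91 normalized counts in Rag1KO lines and 0, 4.83 and 0 in WT lines. Summed per kilobase, the Robo genes reached 99.0, 287 and 177 normalized counts per kb in Rag1KO lines and 75.1, 0.76 and 81.3 in WT lines. In WT line 4 the 3 Slit genes still summed to 4071 normalized counts per kb, whereas WT line 6, with Robo1 present, had the lowest Slit sum at 383.

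**Figure D4:**
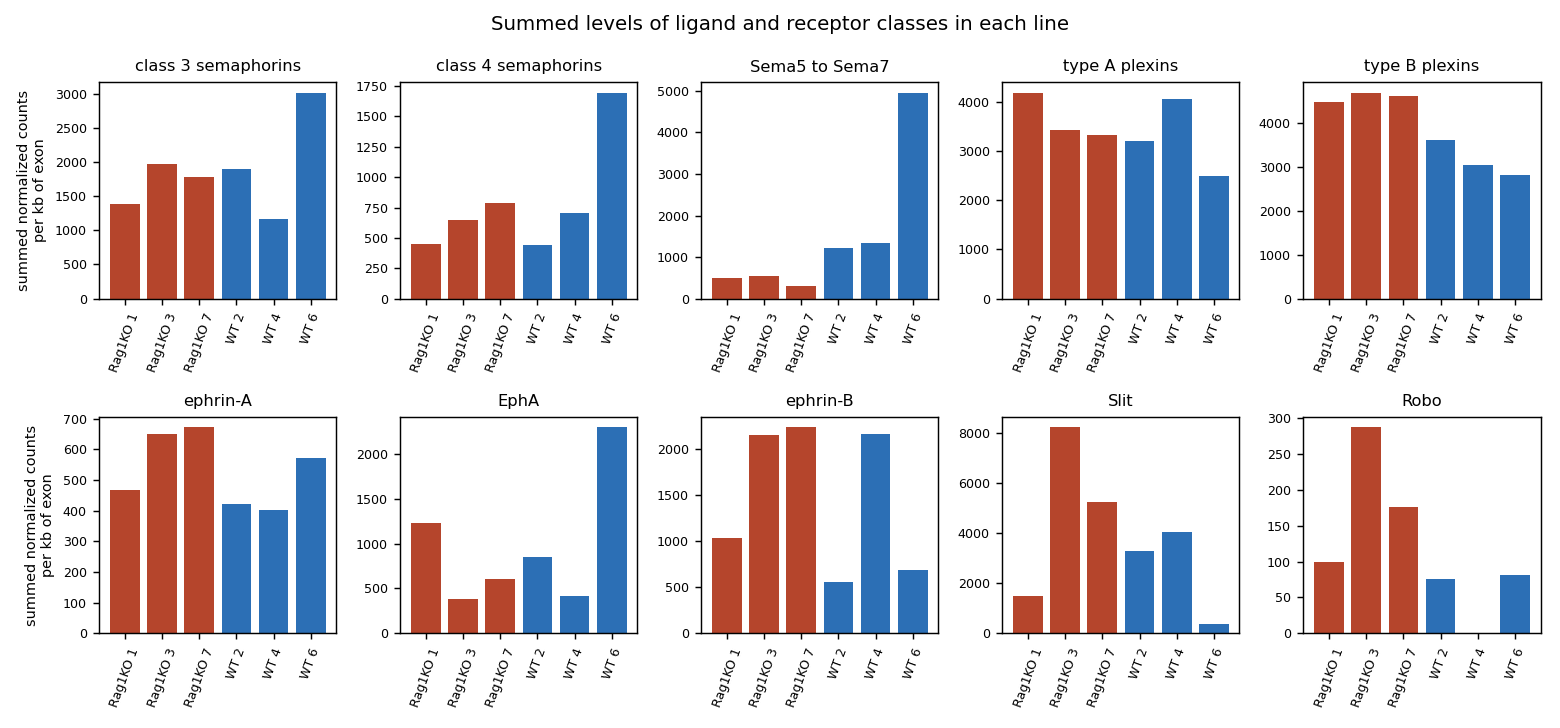
Summed normalized counts per kb of exon for 10 ligand and receptor classes in each line (red bars Rag1KO, blue bars WT, linear axes starting at 0). Type B plexin sums were 4477 to 4697 in Rag1KO lines and 2811 to 3615 in WT lines, the Sema5 to Sema7 sum was highest in WT line 6, and the Robo sum in WT line 4 was 0.76.

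A single low line was a recurrent pattern. For 11 of the 50 tested members 1 line lay at least 8-fold below each of the other 5, where 5.88% of all genes tested did so. Of these 11, WT line 4 accounted for Efna5, Epha3, Ephb6, Robo1 and Sema3d, and WT line 6 for Efna3, Efna4, Epha1, Sema3e, Sema3g and Slit3. Over all genes tested such low values numbered 48 in WT line 4 and 811 in WT line 6. The reverse, 1 line at least 8-fold above the other 5, was found for 1 member, Robo2 in Rag1KO line 7, where 1.2% of all genes tested did so.

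**Figure D5:**
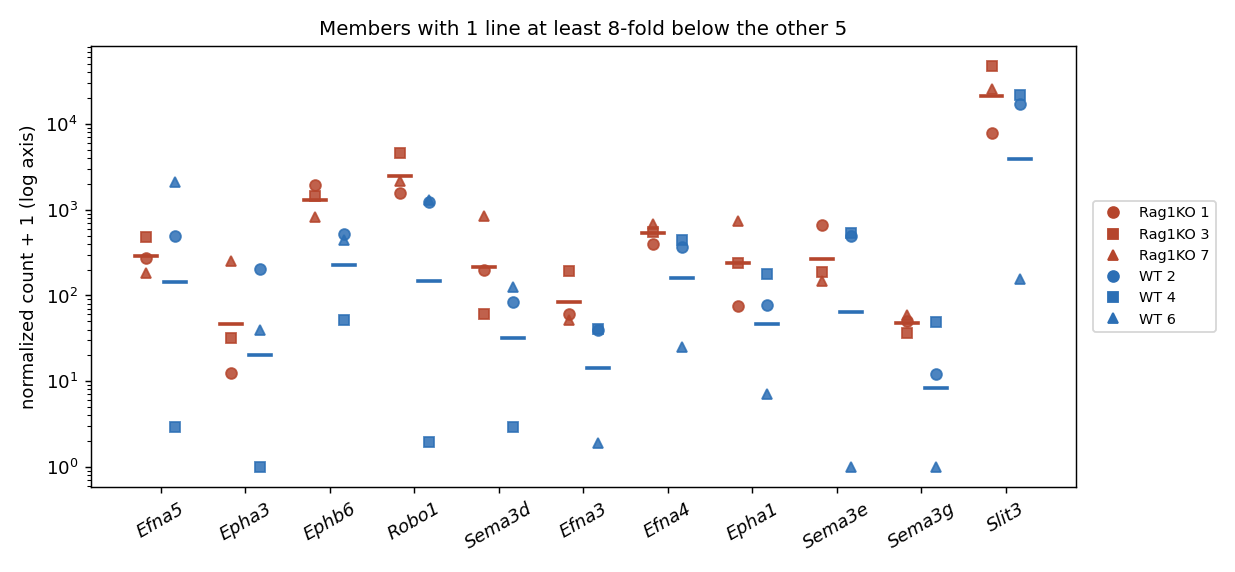
Normalized count + 1 on a log axis for the 11 members with 1 line at least 8-fold below each of the other 5; points are lines (red Rag1KO left, blue WT right), bars are group means on the log2 scale. The low point is WT line 4 for the first 5 genes and WT line 6 for the other 6.

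The promoters of the members on which these patterns turn are shown as the 250 bases before the annotated start (RefSeq, GRCm38.p6), with each CG dinucleotide in capitals. Robo1 (chr16:72662899-72663148, plus strand) and Efna5 (chr17:62881318-62881567, minus strand) were near 0 in WT line 4. Sema3e (chr5:14025026-14025275, plus strand) and Slit3 (chr11:35121206-35121455, plus strand) were lowest in WT line 6. Sema5a (chr15:32244563-32244812, plus strand) and Sema7a (chr9:57939862-57940111, plus strand) were higher in all WT lines. Each is written 5′ to 3′ on the strand of its gene. The Robo1 window precedes the start listed by RefSeq. The GENCODE M21 gene model begins upstream of it, at position 72308306, so other Robo1 starts are not covered. The Slit3 window runs past the GENCODE M21 start at position 35121224, so most of it lies within that gene model.
Robo1: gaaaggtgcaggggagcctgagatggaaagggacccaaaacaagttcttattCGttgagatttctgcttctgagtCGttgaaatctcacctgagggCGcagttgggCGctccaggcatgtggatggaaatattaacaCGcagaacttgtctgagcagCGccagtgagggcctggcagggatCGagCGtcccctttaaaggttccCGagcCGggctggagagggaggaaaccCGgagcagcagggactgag
Efna5: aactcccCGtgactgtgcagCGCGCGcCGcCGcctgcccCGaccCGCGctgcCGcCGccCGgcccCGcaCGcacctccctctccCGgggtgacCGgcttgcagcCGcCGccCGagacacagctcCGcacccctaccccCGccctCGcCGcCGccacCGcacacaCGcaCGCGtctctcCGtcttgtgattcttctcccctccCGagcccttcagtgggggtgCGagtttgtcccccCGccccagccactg
Sema3e: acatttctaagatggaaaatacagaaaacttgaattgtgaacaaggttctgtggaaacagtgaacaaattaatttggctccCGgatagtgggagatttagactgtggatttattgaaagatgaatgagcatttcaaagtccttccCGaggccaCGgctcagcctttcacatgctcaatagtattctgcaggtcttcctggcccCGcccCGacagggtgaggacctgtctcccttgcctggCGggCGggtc
Slit3: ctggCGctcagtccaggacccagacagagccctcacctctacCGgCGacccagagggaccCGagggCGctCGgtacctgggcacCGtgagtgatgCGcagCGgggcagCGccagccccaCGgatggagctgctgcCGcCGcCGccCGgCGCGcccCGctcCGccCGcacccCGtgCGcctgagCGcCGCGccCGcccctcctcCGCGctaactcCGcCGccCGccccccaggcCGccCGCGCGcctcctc
Sema5a: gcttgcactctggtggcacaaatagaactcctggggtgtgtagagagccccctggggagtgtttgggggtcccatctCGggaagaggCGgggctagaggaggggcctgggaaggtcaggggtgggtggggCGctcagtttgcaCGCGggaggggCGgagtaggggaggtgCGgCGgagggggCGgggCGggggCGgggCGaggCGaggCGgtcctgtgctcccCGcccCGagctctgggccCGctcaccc
Sema7a: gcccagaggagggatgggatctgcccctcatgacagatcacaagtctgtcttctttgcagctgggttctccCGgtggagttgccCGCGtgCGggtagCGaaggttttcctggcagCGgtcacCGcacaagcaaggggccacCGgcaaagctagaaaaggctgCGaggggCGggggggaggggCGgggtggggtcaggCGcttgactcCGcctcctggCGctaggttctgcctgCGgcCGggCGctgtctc

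CG content in this window varied between these members. Efna5 and Slit3 held 32 and 35 CG dinucleotides, counts reached by 4.58% and 2.97% of the 32851 promoters in the table. Robo1, low in the same line as Efna5, held 11, and Sema3e, low in the same line as Slit3, held 7, counts reached by 35.6% and 46.3% of promoters. Sema5a and Sema7a held 17 each, reached by 23.5%. Over the 42 tested members with a promoter the median was also 17, taking the highest count of each gene. It was 12 over the 11 untested members with a promoter, and 6 over all genes with a promoter. That last set was not filtered for expression, so it is unlike the tested members. The GC box letters GGGCGG, counted on both strands, occurred 0 times in the Robo1 window and 4 times in that of Efna5. They occurred 2 times for Sema3e, 6 for Slit3, 5 for Sema5a and 2 for Sema7a, and at least once in 32.7% of all promoters. TATAAA, on either strand, was in none of these 6 windows and in 12.4% of all promoters. RefSeq promoters were matched for 53 of the 61 members. These are counts of letters, and DNA methylation and factor binding were not measured here.

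Netrins were expressed without their receptor DCC. Ntn1 had 5324, 10039 and 5658 normalized counts in Rag1KO lines and 5073, 4850.0 and 10456 in WT lines, with Rag1KO line 3 and WT line 6 about as high as each other. Ntn4, a basement membrane netrin, had 3499.7, 14879.7 and 982 normalized counts in Rag1KO lines and 7219.7, 811 and 282 in WT lines, a span of 52.8-fold that crossed the labels. Dcc had 0 reads in every library, while the netrin receptor Unc5b had 42165, 51030.3 and 13031 normalized counts in Rag1KO lines and 31097, 7343 and 16936 in WT lines. Neogenin (Neo1) was also abundant, with 11251 to 15832 normalized counts in Rag1KO lines and 7043 to 31826 in WT lines.

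Of 61 partner genes of these pathways (co-receptors, other receptors, cytoplasmic effectors and sheddases), 52 were tested and 0 passed the threshold in limma, edgeR or DESeq2. An unadjusted p under 0.05 in limma was found for 3 of the 52, all higher in WT lines, where 4.67% of all genes tested had such a p. The median log2 fold change was 0.03 over the 52, with 27 positive and 25 negative. Groups did not overlap for 11.5% of the 52, where 12.1% of all genes tested did not overlap. Of these partners 1 was higher in Rag1KO lines and 5 were higher in WT lines. Vav3, an exchange factor that acts downstream of Eph receptors, had 47.0, 138 and 54.3 normalized counts in Rag1KO lines and 379.7, 207 and 1511 in WT lines (log2 fold change −2.78). Rgma, a repulsive ligand of neogenin, had 1638, 899 and 2437 normalized counts in Rag1KO lines and 3068, 3673 and 5089.6 in WT lines (log2 fold change −1.33). Adam17, which sheds surface proteins, had 4119.8, 3349.7 and 2747 normalized counts in Rag1KO lines and 4422, 4781 and 6929.6 in WT lines (log2 fold change −0.65). For each of these the WT lines lay above all Rag1KO lines, and the adjusted p in limma was 0.85. Rasa1, a Ras GTPase-activating protein that binds Eph receptors, had 5633, 4047 and 3869 normalized counts in Rag1KO lines and 13055, 4312 and 15545 in WT lines, and Rag1KO line 1 lay above WT line 4. Rnd1 and Rnd3 encode proteins that bind plexins. Rnd1 had 2882, 2431 and 786 normalized counts in Rag1KO lines and 1699, 402 and 247 in WT lines, with overlap. Rnd3 had 5418, 6732 and 6350.3 normalized counts in Rag1KO lines and 4637, 5168 and 1879.6 in WT lines, without overlap, at an adjusted p of 0.85 in limma. The neuropilins, co-receptors of class 3 semaphorins, were expressed in all lines, Nrp1 at 5982 to 8247 normalized counts in Rag1KO lines and 2357 to 10985 in WT lines, and Nrp2 at 6281.5 to 16316 and 5247 to 23269.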

How the data were processed

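RNA from 6 lines was sequenced after library preparation with a TruSeq Stranded kit, per the labels' protocols. The submitters' processing notes list mm10, STAR 2.7.9a, Trim Galore 0.6.6, DESeq2 and FastQC, without roles; the read counter and annotation are not given in the sources used here. The deposited signal values are the authors' gene counts divided by 1 size factor per library: 100% were whole reads within 0.01 after multiplication. Gene IDs were matched to GENCODE M21 (55141 of 55401), which gave exon lengths and coordinates. Exon length is the union of all annotated exons of a gene, and levels and shares per kilobase depend on that choice. Genes were kept by filterByExpr (16137), and the contrast Rag1KO minus WT was tested by limma 3.58.1 (trend option) on log2(value + 1), two-sided, Benjamini-Hochberg adjusted over all genes tested at 0.05. Alternatives were edgeR 4.0.16, DESeq2 1.42.0 and limma-voom on recovered reads, TMM scaling, a pseudocount of 0.1, no filter, 1 CPM in 3 libraries, and leaving out each library; the span without each library was added after seeing the data. Both limma and edgeR had first been tested on simulated data. Tools were R 4.3.3, Python 3.11.15 and matplotlib 3.10.9.

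Members, partner and marker lists were chosen with earlier results of these data known. Values in every library are given for members averaging at least 100 normalized counts without overlap, the 2 highest per kb in each of 9 families, the 10 with the widest span, the 6 with the lowest p, and the 6 partners with the lowest p. Any other gene, and the 6 promoters, were chosen after values were seen.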

Additional observations from a re-analysis of the deposited data

How the results depend on the processing

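The count of genes called over the whole table was 1 by limma, 0 by edgeR, 65 by DESeq2 and 0 by limma-voom, and 0 to 5 when 1 library was left out. Members called were 2 by DESeq2 and 0 under every other alternative run; the log2 fold changes that passed were 6.05 for Slit1 and −3.32 for Sema5a. Partner genes called were 0 under all alternatives. The members' median log2 fold change lay between 0.51 and 1.06 with 1 library left out, and members with a span above 8-fold numbered 22 to 34.

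None of the values that changed sign had passed the threshold, and the cause was not tested. By edgeR and DESeq2 the log2 fold change was −1.45 and −1.44 for Efna5, 0.27 and 0.27 for Ephb4, and −0.0197 and −0.023 for Sema3e, each of the opposite sign in limma. With 1 library left out it ranged from −1.81 to 2.92 for Efna5, −0.94 to 2.89 for Epha3, −1.72 to 3.17 for Ephb2, −0.80 to 0.79 for Ephb4 and −0.21 to 0.44 for Ntn1. The range was −0.0575 to 0.37 for Plxna1, −0.52 to 3.73 for Robo2, −0.95 to 3.57 for Sema3e, −0.11 to 0.37 for Sema4c, −3.20 to 0.51 for Sema6a and −0.59 to 0.60 for Slit2. TMM scaling moved the median of all genes by 0.01. No paired analysis was possible because the groups share no replicate numbers. Epha3, Robo2, Sema4a, Sema6a and Slit1 gave no value under the 1 CPM filter, which removed them.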
